A study of Homo sapiens with 12 samples.

Results

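The genes described here are the numbered zinc finger genes of chromosome 19, whose symbols are ZNF followed by a number. A gene was taken as a member where its row of the count table lay only on chromosome 19 and its mean over the 12 libraries was at least 1 CPM (counts scaled to a common library total). Of the 57169 genes in the table, 241 were ZNF rows of chromosome 19, and 173 of those were members. The mean level over both groups chose the members. A difference between the groups was not part of the rule, but a gene low in 1 group can be a member through the other.

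RNA was sequenced from 6 tumours labelled as knock-down for RING1B and 6 control tumours, which the labels call wild-type. All 12 were xenografts, that is, tumours grown in a host animal, of the SK-ES1 line, which was established from an Ewing sarcoma, so the EWSR1-FLI1 setting of that line was common to both groups. The labels name neither the host, nor the silencing or control construct, nor whether the knock-down cells were 1 clone, and they do not say that the libraries come from separate animals. RING1B, encoded by RNF2, is the catalytic subunit of Polycomb repressive complex 1 and attaches ubiquitin to histone H2A.

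Zinc finger proteins of this kind bind DNA through a row of C2H2 fingers, each a short fold held by a zinc ion, and the fingers are joined by a conserved linker. Many carry a KRAB domain at the start of the protein, which binds the corepressor TRIM28 and through it the histone methyltransferase SETDB1, and many of their known targets are transposable elements. The genes arose by repeated local duplication and stand in clusters along chromosome 19, where the 3′ ends of many are themselves covered by the repressive mark that SETDB1 makes.

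The shared finger code is shown first, because near-identical stretches in many genes are what makes reads of this family hard to assign to 1 gene. The protein-coding transcripts of the 173 members were searched whole, untranslated ends included, in any reading frame. A pattern for the C2H2 finger was found a median of 12 times per gene, with a range of 0 to 29, in the transcript with most matches. A 21-base linker pattern was found 923 times, in 288 distinct spellings. The 4 commonest spellings follow, 5′ to 3′, read from the GENCODE release 29 transcripts, with the linker codons in capitals.
Linker 1: catACTGGAGAGAAACCTtac
Linker 2: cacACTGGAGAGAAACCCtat
Linker 3: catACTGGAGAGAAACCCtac
Linker 4: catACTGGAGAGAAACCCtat
The first spelling had 79 copies in 23 members, 8.56% of all linker matches. The second had 59 copies in 30 members, the third 52 copies in 14 members and the fourth 27 copies in 23 members. Of all 50-base words in a member's transcripts, a median of 4.13% also occurred in another gene, on either strand. The highest share was 60.4%, in ZNF490. A gene that overlaps the member at the same place counted as another gene, as AC010422.6 does for ZNF490. A high share can thus come from overlap and not from shared finger code. In 14 members the share was above 25%, and for these the counts are uncertain. ZNF428, ZNF358, ZNF417 and ZNF224, named below, are among those 14, with shares of 25%, 28.6%, 37.7% and 39.8%. Each of them also overlaps another gene. The exons of 96 members overlapped those of another gene. The library kit keeps strand, but the strand setting of the counting is not given in the sources used here, so reads of a member and of an overlapping gene may not be told apart.

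Library totals ranged from 23859184 to 26678325 counts, and 3 counts stood for 0.112 to 0.126 CPM. RNF2 had 12.4, 18.4 and 23.4 CPM (lowest, median and highest library) in knock-down tumours, against 37.5, 49.2 and 57.9 CPM in control tumours. All knock-down libraries were below all control libraries, and RNF2 fell, with a log2 fold change of -1.43 (SE 0.174, adjusted p = 0.00347, edgeR's quasi-likelihood test with Benjamini-Hochberg adjustment over 16519 genes; exact permutation p = 0.00216, two-sided, the smallest that 6 libraries against 6 can give). The permutation and the edgeR fit both took each library as a separate unit, although 4 of the 8 numbers in the sample titles are each on 2 libraries. If libraries that share a number are not independent, the p-values of both tests, here and below, are too small. The summed CPM of 8 Ewing sarcoma markers was 1900 to 2160 in knock-down tumours and 1790 to 2010 in control tumours. Of the 8, 7 were counted, among them NR0B1, NKX2-2 and FLI1, and CD99, whose row joins copies at 2 places of the genome, had 0 counts in every library. The share of mitochondrial counts was 5.55 to 10% in knock-down tumours and 4.65 to 14.4% in control tumours, highest in control 6. The summed CPM of 5 fibroblast markers was 333 to 1210 in knock-down tumours and 479 to 1230 in control tumours, and that of 8 leukocyte markers was 8.05 to 33.5, highest in knock-down 4, against 7.19 to 26.3, highest in control 5; CD3E was at 0 throughout. The part of these differences between libraries in the results below was not tested.

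No member passed the test in either direction. Over all 16519 genes tested, 0.297% passed it, 0.176% higher and 0.121% lower in knock-down tumours. At an unadjusted p below 0.05, which is not a call, 29 of 173 members (16.8%) were higher and 2 (1.16%) were lower. Of all genes, 7.45% were higher and 5.21% lower at that p. Of the 707 other tested protein-coding genes of chromosome 19, 93 were higher and 10 lower, and 6 passed the test, all higher. An excess of higher genes was thus also found in the neighbours of the members. Of 207 ZNF genes of other chromosomes, 14 were higher and 4 lower, and none passed. With other tools few members were called as well. DESeq2 called ZNF253 and ZNF114 higher and ZNF671 lower, where it called 2.12% of all genes. The limma-voom fit called ZNF671 alone, where it called 0.315%.

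The members lay slightly above 0 as a set. A positive log2 fold change, knock-down over control, was seen in 126 of 173 members (72.8%), beside 52.4% of all genes. The median was 0.12, with quartiles of -0.01 and 0.31, and the median of all genes was 0.01. Of the members, 169 lay within a 2-fold difference in either direction. The 207 ZNF genes of other chromosomes that met the same level had a median of 0.04, with 121 positive. The 707 other tested protein-coding genes of chromosome 19 had a median of 0.09, with 486 positive (68.7%), so a share of positive values near that of the members was also found in their neighbours. Members in which a KRAB pattern was found had a median of 0.15 (99 of 133 positive) and those without one a median of 0.07 (27 of 40 positive). How often the pattern misses a KRAB domain was not measured, so members without a match may still encode one. In the 77 members that overlap no other gene the median was 0.14, with 53 positive. No test was made of these medians, because the members were chosen with results of these data known.

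In each library, members took up 0.229, 0.251 and 0.261% of all counts (lowest, median and highest) in knock-down tumours, against 0.212, 0.231 and 0.245% in control tumours. The groups overlapped. For each gene the deviation of log2 CPM from its mean over the 12 libraries was taken, and the median over members was highest in knock-down 5, at 0.21, and lowest in control 5, at -0.22. The other 5 knock-down libraries lay between -0.02 and 0.10, and the other 5 control libraries between -0.11 and 0.06. Knock-down 5 held the highest value of the 12 libraries for 34.1% of the members, beside 16.9% of all genes, and control 5 the lowest for 26.6%, beside 6.46%. In these same libraries the ZNF genes of other chromosomes went the same way by less, at 0.09 in knock-down 5 and -0.07 in control 5. The other coding genes of chromosome 19 went the opposite way, at -0.25 in knock-down 5 and 0.14 in control 5. Without control 6, knock-down 4 and knock-down 5, the libraries with the most extreme values over all genes, the median log2 fold change of the members was 0.08 and 112 were positive. The member transcripts had a median GC content of 42.9%, against 60.2% for the other coding genes of chromosome 19 and 48.3% for all genes. Among all genes the median log2 fold change stayed between -0.02 and 0.04 in 5 equal bins of GC content. These bins compare the groups and not single libraries, and the part of GC content in the library values was not tested.

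**Figure D1:**
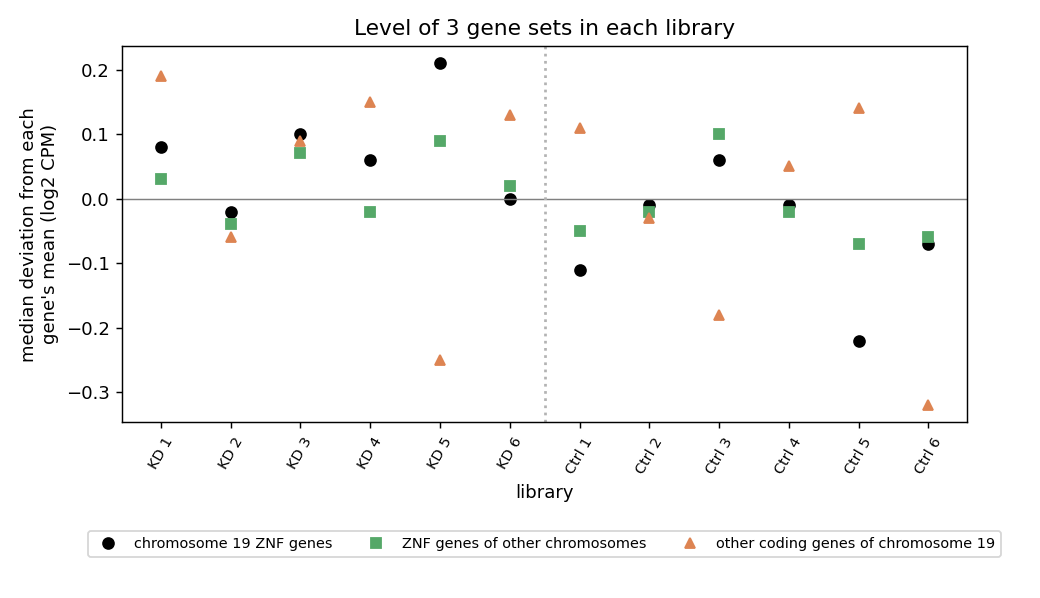
Median deviation of log2 CPM from each gene's own mean, by library, for chromosome 19 ZNF genes (circles), ZNF genes of other chromosomes (squares) and other coding genes of chromosome 19 (triangles); the 6 knock-down libraries are on the left and the 6 control libraries on the right. The circles are highest in knock-down 5 (0.21) and lowest in control 5 (-0.22). In both libraries the squares stand on the same side of 0 as the circles and the triangles on the other side.

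Along the chromosome, the 241 rows formed 9 position groups, runs of ZNF rows whose successive starts were at most 1 Mb apart; runs with fewer than 3 members are given together as scattered genes. Coordinates are on hg38, with gene models of GENCODE release 29. Groups 1 to 4 lie on the short arm and groups 5 to 9 on the long arm. How many rows reached the level of the rule differed widely between the groups. In group 4, at 19.7 to 24.1 Mb beside the centromere, 15 of 37 rows (40.5%) were members, and in group 9, at 55.5 to 58.5 Mb near the end of the long arm, 51 of 57 (89.5%) were. Groups 3 and 8, at 11.5 to 12.6 and 51.6 to 53.6 Mb, kept 15 of 25 and 25 of 39 rows. The remaining groups kept 4 of 5 (group 1, 2.8 to 2.9 Mb), 13 of 15 (group 2, 7.1 to 9.8 Mb), 5 of 6 (group 5, 34.5 to 35.0 Mb), 18 of 24 (group 6, 36.2 to 37.8 Mb) and 20 of 24 (group 7, 43.5 to 45.1 Mb). Of the 68 rows under the level, 28 had a mean below 0.1 CPM.

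**Figure D2:**
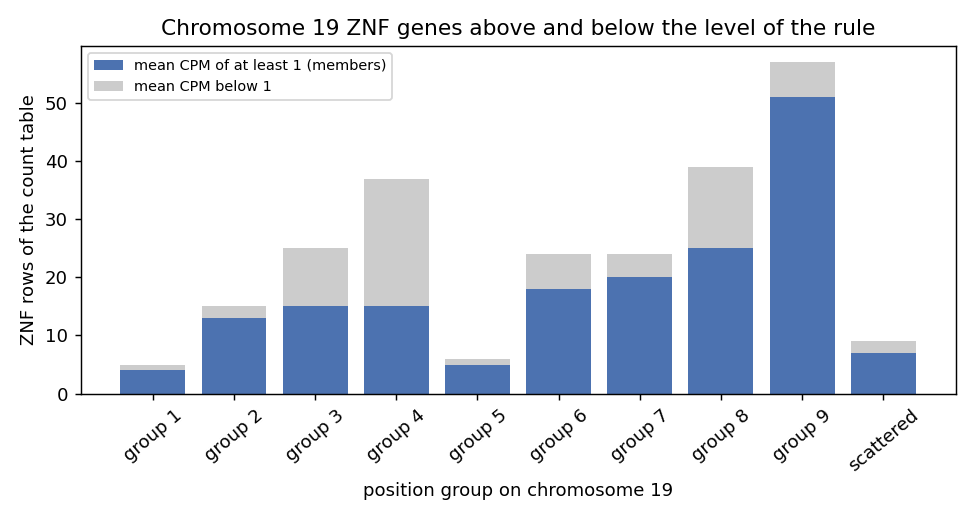
Number of ZNF rows of the count table in each position group of chromosome 19 and among scattered genes, split into rows with a mean of at least 1 CPM over the 12 libraries (blue, the members) and rows below it (grey). Group 4 has 15 members of 37 rows and group 9 has 51 of 57.

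Values near the level of the rule are given as a description. Just inside it were ZNF506, ZNF85 and ZNF573, with means over all libraries of 1.02, 1.02 and 1.21 CPM. Just outside were ZNF880, ZNF600 and ZNF221, with means of 0.944, 0.956 and 0.975 CPM. ZNF506, ZNF85 and ZNF83 averaged 0.696, 0.749 and 0.938 CPM in control tumours, and 1.35, 1.32 and 2.6 CPM in knock-down tumours. ZNF671 averaged 0.687 CPM in knock-down tumours and 1.81 CPM in control tumours. Each of these met the level only through the group where it was higher. ZNF91 and ZNF93, known as repressors of SVA and LINE-1 retrotransposons, were below the level: ZNF91 had 0.182, 0.809 and 1.62 CPM in knock-down tumours, against 0.0, 0.617 and 1.0 CPM in control tumours, and ZNF93 had 0.218, 0.435 and 1.84 against 0.0, 0.279 and 0.620. ZNF536, a repressor of neuronal differentiation, had at most 0.209 CPM in knock-down tumours and 0 counts in all control tumours; its level stood near the floor of 3 counts in both groups, and it was not tested.

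The median log2 fold change was 0.40 in group 1, 0.03 in group 2, 0.18 in group 3, 0.31 in group 4, 0.25 in group 5, 0.20 in group 6, 0.10 in group 7, 0.15 in group 8 and 0.06 in group 9. Knock-down 5 bore on several of these: without it the median was 0.04 in group 3, 0.07 in group 6, 0.21 in group 4 and -0.03 in group 2. Without control 6 the median of group 9 was 0.01, and without control 1 that of group 8 was 0.09. Positive values numbered 17 of 18 in group 6, 21 of 25 in group 8 and 13 of 15 in group 4, but 28 of 51 in group 9. Groups 1 to 8 with the scattered genes held 122 members, of which 98 were positive. Group 9 was not uniform. Where a run is broken at 0.5 Mb, its 13 members at 55.5 to 56.7 Mb had a median of 0.30, with 12 positive, and its 38 members at 57.2 to 58.5 Mb a median of -0.03, with 16 positive. A KRAB pattern was found in 4 of those 13 and in 29 of those 38 members, and their median GC contents were 61.7% and 46.1%. The difference between the 2 stretches was not tested. Of the 6 members with the largest negative log2 fold changes, 4 lay in the stretch at 57.2 to 58.5 Mb. Of the 6 with the largest positive ones, 4 lay in group 4, among them ZNF506, which met the level through the knock-down tumours. With genes kept only at 1 CPM or more in at least 6 libraries, group 4 had 13 members and a median of 0.20.

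**Figure D3:**
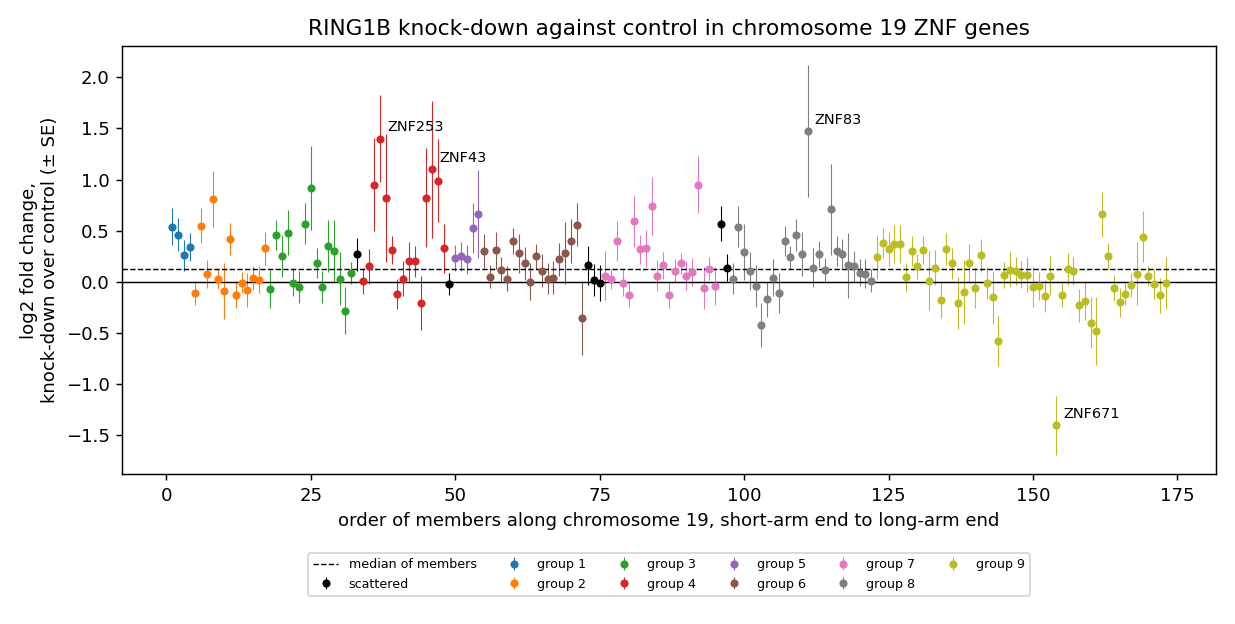
Log2 fold change, knock-down over control, with its standard error, for the 173 members in their order along chromosome 19, coloured by position group; the dashed line is the median of the members, 0.12. Values of group 9 (28 of 51 positive) lie on both sides of 0, and ZNF671 stands lowest at -1.40.

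ZNF671, a KRAB zinc finger gene known as a target of promoter methylation in several carcinomas, had the lowest log2 fold change of the family. It lies at chr19:57719751-57727624 on the minus strand, in the long-arm end of group 9. Its level was 0.338, 0.688 and 1.06 CPM in knock-down tumours, against 1.26, 1.84 and 2.35 CPM in control tumours. All knock-down libraries were below all control libraries, which was so for 1 member and for 0.575% of all genes. The log2 fold change was -1.40 (SE 0.288, 95% interval -2.01 to -0.78), with an adjusted p of 0.056 in edgeR's quasi-likelihood test and an exact permutation p of 0.00216. ZNF671 met the level of the rule only through the control tumours, and it was named for its small p and low log2 fold change. The exact p is not adjusted for that choice, so these values are given as a description. The adjusted p lay just above the threshold. Across the 24 other settings it ranged from 0.0011 to 0.316, below 0.05 in 7 of them, and the log2 fold change from -1.75 to -1.26. The call was made without control 6 (0.0428) and without knock-down 4 (0.0322). No 50-base word of its transcripts occurred in another gene, and its exons overlapped none. The genes around it had smaller values, none of which passed the test: ZNF211 and ZNF551 on one side had log2 fold changes of -0.14 and 0.06, and ZNF776 and ZNF586 on the other -0.13 and 0.13.

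ZNF772, in the same stretch, had 5.05, 7.22 and 11.9 CPM in knock-down tumours, against 7.48, 12.9 and 15.9 CPM in control tumours, and a log2 fold change of -0.58 (SE 0.244, edgeR adjusted p = 0.345). The groups overlapped. The remaining largest negative values were -0.48 for ZNF418, -0.42 for ZNF615 in group 8, -0.40 for ZNF417 and -0.35 for ZNF573 in group 6, all with overlapping groups. That of ZNF573 was -0.05 without control 3, that of ZNF418 was -0.29 without knock-down 2, and that of ZNF772 was -0.36 without control 1 and 2.

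ZNF382, in group 6, encodes a KRAB repressor reported as silenced in several carcinomas. It had 9.26, 10.1 and 13.5 CPM in knock-down tumours, against 6.86, 7.89 and 8.98 CPM in control tumours. All knock-down libraries were above all control libraries, which was so for 1 member and for 0.648% of all genes. The log2 fold change was 0.40 (SE 0.131), with an edgeR adjusted p of 0.224 and an exact permutation p of 0.00216. ZNF382 was named for the smallest p of its group, and the exact p is not adjusted for that choice. Exons of ZNF382 overlap those of ZNF529, so reads of these genes may not be told apart.

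The member with the smallest p in each of the other groups was higher in knock-down tumours too, by values that did not pass the edgeR test. ZNF554 (group 1) had a log2 fold change of 0.54, ZNF358 (group 2) 0.55, ZNF627 (group 3) 0.46, ZNF253 (group 4) 1.40, ZNF30 (group 5) 0.53, ZNF285 (group 7) 0.95, ZNF480 (group 8) 0.46 and ZNF114 among the scattered genes 0.57. ZNF285 had 1.21, 2.14 and 2.73 CPM in knock-down tumours, against 0.658, 1.06 and 1.71 CPM in control tumours (adjusted p = 0.184, edgeR). ZNF114 had 5.41, 6.37 and 8.16 CPM in knock-down tumours, against 3.57, 4.30 and 5.77 CPM in control tumours (adjusted p = 0.193, edgeR, and 0.0473, DESeq2). In both genes the highest control library was above the lowest knock-down library.

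**Figure D4:**
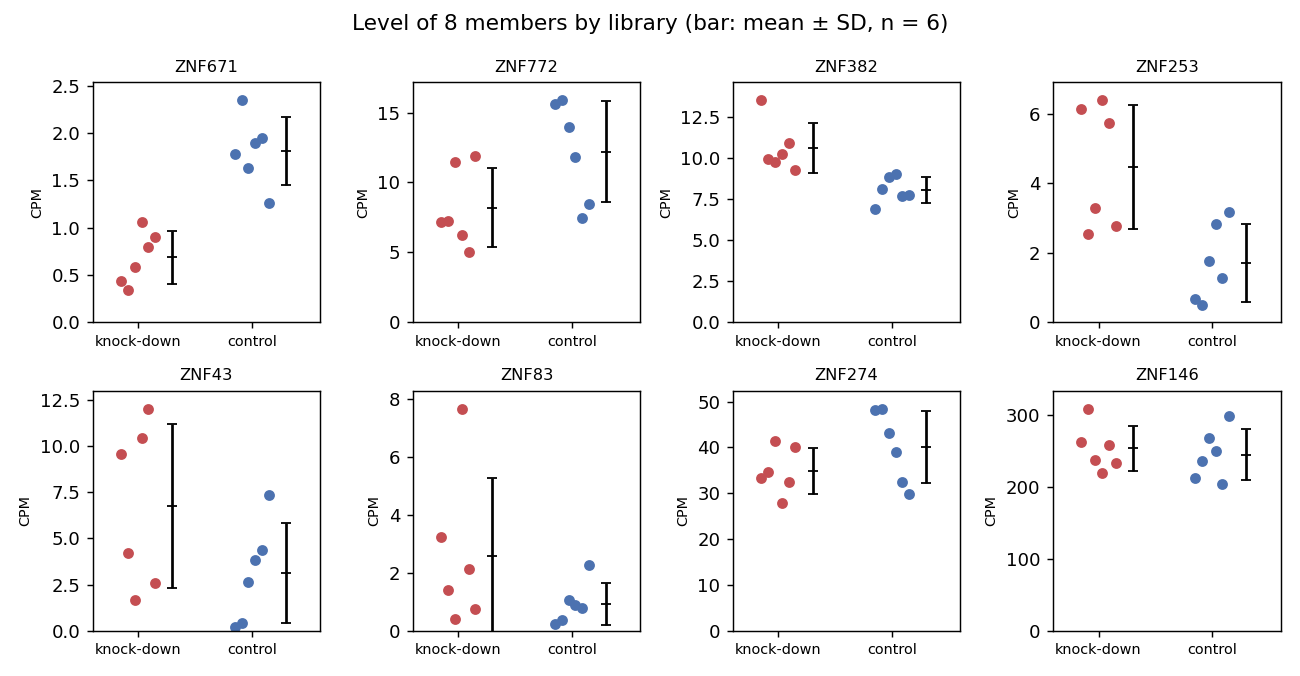
Level in CPM of 8 members in each library, knock-down on the left and control on the right of each panel, with mean ± SD (n = 6 each). The groups do not overlap for ZNF671 (lower in knock-down) and ZNF382 (higher), and overlap in the other 6 panels; ZNF83 has 1 high library, knock-down 4, at 7.66 CPM.

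Some members varied widely between libraries. Ranges were taken from log2 CPM with a prior count of 2, which makes them narrower than in plain CPM for genes of low level. On that scale, 14 of 173 members (8.09%) had their highest library at least 4-fold above the lowest. The share was 10.6% of all genes with a mean of at least 1 CPM and 2.42% of such ZNF genes of other chromosomes. These sets differed in level, with median means of 8.98 CPM in members, 26.6 in all genes and 19.8 in the other ZNF genes. At least 8-fold on that scale was reached by 7 members, 4.05% beside 4.29% of all genes with a mean of at least 1 CPM. The 14 were ZNF43, ZNF83, ZNF85, ZNF253, ZNF100, ZNF675, ZNF816, ZNF844, ZNF506, ZNF671, ZNF418, ZNF558, ZNF792 and ZNF573, and 6 of them lie in group 4. The range of ZNF506 rested on knock-down 4 and that of ZNF671 on the difference between the groups. For 11 of them the log2 fold change was positive. Those 11, chosen by that sign, were highest in knock-down 1, 4 or 5, of which 8 in knock-down 4, and 10 were lowest in control 1 or 2, which carry the same number in their titles. Knock-down 4 also held the highest value for 16.4% and the lowest for 16.2% of all genes. Its summed markers were the highest of its group for fibroblasts (1210 CPM, other knock-down libraries 333 to 597). So were those for endothelium (21.6 CPM, others 9.89 to 17.7) and leukocytes (33.5 CPM, others 8.05 to 17.5). Over the 12 libraries most of the endothelial sum was CLDN5 (mean 9.6 CPM), while PECAM1 and VWF averaged 0.193 and 0.15. Most of the leukocyte sum was LYZ and AIF1 (5.43 and 4.47), while PTPRC averaged 0.925. The part of these markers in this pattern was not tested.

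ZNF43, a KRAB zinc finger gene at chr19:21804949-21852125 on the minus strand, had the widest range. It had 1.68, 6.88 and 12 CPM in knock-down tumours, against 0.185, 3.23 and 7.37 CPM in control tumours, and its lowest library had 5 counts and its highest 287. In knock-down tumours libraries 1, 4 and 5 had 9.54, 10.4 and 12 CPM and libraries 2, 3 and 6 had 4.23, 1.68 and 2.56, while in control tumours libraries 1 and 2 had 0.185 and 0.417 CPM and the other 4 had 2.63 to 7.37. Knock-down 3 and 4, at 1.68 and 10.4 CPM, share a title number. The groups overlapped, and the log2 fold change of 1.10 (SE 0.669) had an edgeR adjusted p of 0.519. ZNF253 had 2.54, 4.50 and 6.39 CPM in knock-down tumours, against 0.493, 1.51 and 3.18 CPM in control tumours. Its groups overlapped, since 2 control libraries lay above the lowest knock-down library. Its log2 fold change was 1.40 (SE 0.422), with an adjusted p of 0.196 in edgeR and 0.0453 in DESeq2.

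ZNF83, in group 8, had 0.401, 1.76 and 7.66 CPM in knock-down tumours, against 0.222, 0.843 and 2.26 CPM in control tumours, and its log2 fold change of 1.47 was 0.76 without knock-down 4. ZNF506 had 0.95, and 0.21 without knock-down 4. ZNF675, with 0.99, ZNF85, with 0.82, and ZNF100, with 0.82, completed the variable members of group 4. The value of ZNF85 was 0.52 without knock-down 1 and 1.27 without control 6. Without control 1 and 2 the log2 fold change was 0.32 for ZNF85 and 0.56 for ZNF43, and the median of group 4 was 0.18. In bulk tumours, a gene expressed in fewer cells and a gene with less RNA per cell cannot be told apart.

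**Figure D5:**
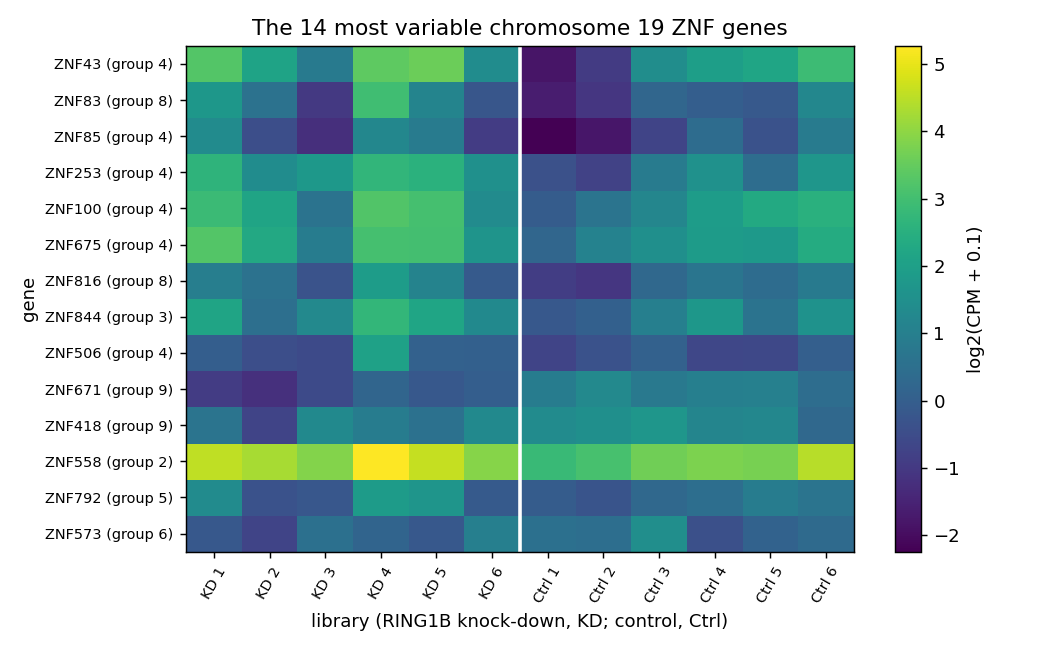
Log2(CPM + 0.1) of the 14 members of wide range in the 6 knock-down (left) and 6 control (right) libraries, with the position group in brackets. In each, the highest library is at least 4-fold above the lowest in log2 CPM with a prior count of 2. The 11 rows with a positive log2 fold change are brightest in knock-down 1, 4 or 5, and 10 of them are darkest in control 1 or 2. ZNF671, ZNF418 and ZNF573 are brightest in a control library. ZNF43 spans 0.185 to 12 CPM.

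Promoters are shown for the 4 variable members of group 4 that shared the word AACCGTCCAATCAGG, all of which were lowest in control 1. The windows run from 250 bases before to 50 after the RefSeq gene start, on GRCh38.p14, 5′ to 3′ on the gene's strand, with the word in capitals. The RefSeq start of ZNF43 lies inside the GENCODE gene, so its window is not at the outermost start.
ZNF43, chr19:21836133-21836432, minus strand: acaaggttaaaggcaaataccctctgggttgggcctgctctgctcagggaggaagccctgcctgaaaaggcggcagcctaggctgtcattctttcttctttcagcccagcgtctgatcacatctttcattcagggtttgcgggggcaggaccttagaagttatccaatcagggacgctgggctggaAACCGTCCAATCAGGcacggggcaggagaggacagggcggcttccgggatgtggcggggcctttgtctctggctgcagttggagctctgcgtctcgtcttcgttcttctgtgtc
ZNF85, chr19:20923001-20923300, plus strand: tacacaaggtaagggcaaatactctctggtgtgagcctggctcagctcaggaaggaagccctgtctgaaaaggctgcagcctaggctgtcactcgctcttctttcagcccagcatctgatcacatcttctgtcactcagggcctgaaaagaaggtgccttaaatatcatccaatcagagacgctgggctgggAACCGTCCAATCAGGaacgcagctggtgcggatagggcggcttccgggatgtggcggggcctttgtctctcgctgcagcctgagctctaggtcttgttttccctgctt
ZNF100, chr19:21767530-21767829, minus strand: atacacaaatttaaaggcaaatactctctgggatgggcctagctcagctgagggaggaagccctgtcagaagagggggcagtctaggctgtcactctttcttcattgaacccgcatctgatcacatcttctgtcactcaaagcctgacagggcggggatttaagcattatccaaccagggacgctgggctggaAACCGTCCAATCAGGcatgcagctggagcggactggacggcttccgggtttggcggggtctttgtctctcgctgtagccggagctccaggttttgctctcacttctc
ZNF675, chr19:23687163-23687462, minus strand: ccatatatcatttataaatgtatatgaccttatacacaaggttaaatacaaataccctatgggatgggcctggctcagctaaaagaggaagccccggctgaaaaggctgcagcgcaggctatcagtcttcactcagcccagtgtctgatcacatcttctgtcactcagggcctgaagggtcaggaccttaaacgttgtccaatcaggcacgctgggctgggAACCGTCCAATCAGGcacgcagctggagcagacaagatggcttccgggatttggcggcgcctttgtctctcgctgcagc
The word, which contains the letters CCAAT, was picked from these genes after their values were seen, and both strands were searched. It was found in 4 of the 12 variable members with a window, in 7 of 157 members (4.46%) and in 12 of 27305 promoters of the same length (0.0439%), 10 of them on chromosome 19. All 7 members with the word lie in group 4. The other carriers, ZNF430, ZNF714 and ZNF431, varied much less between libraries, with log2 ranges of 0.69, 0.77 and 1.11 beside 5.51 for ZNF43, so the word was present in members with wide and with narrow ranges. The 4 windows held 12, 9, 10 and 10 CpG dinucleotides (ZNF43, ZNF85, ZNF100 and ZNF675), and the median over members was 22, against 26 over all tested genes with a window.

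Per length of exon, the family was expressed at low levels, with a median of 1.65 CPM per kb over members and 3.76 over all genes. The highest was ZNF146, which encodes a short protein made almost only of fingers, at 60.0 CPM per kb. It was followed by ZNF581 (29.3), ZNF428 (26.7), ZNF358 (15), ZNF266 (14.7), ZNF787 (13.3), ZNF580 (12.2) and ZNF317 (10.9 CPM per kb). No KRAB pattern was found in 6 of these 8. Exons of ZNF146, ZNF581, ZNF428, ZNF358 and ZNF580 overlap those of another gene, and ZNF581 and ZNF580 overlap each other. ZNF146 had 220, 248 and 309 CPM in knock-down tumours, against 205, 243 and 299 CPM in control tumours, with a log2 fold change of 0.05 (95% interval -0.19 to 0.29), and the groups overlapped almost fully. ZNF358 had 30.8, 35.4 and 46.2 CPM in knock-down tumours, against 14.2, 26.1 and 34.9 CPM in control tumours, with a log2 fold change of 0.55 (SE 0.175, edgeR adjusted p = 0.217). Its highest control library lay above its lowest knock-down library. The log2 fold changes of the other 6 were 0.30 for ZNF581, 0.40 for ZNF428, -0.13 for ZNF266, 0.15 for ZNF787, 0.05 for ZNF580 and 0.03 for ZNF317.

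Among members with known roles, ZNF274 recruits SETDB1 to the 3′ ends of zinc finger genes. It had 27.8, 34.0 and 41.3 CPM in knock-down tumours, against 29.9, 41.0 and 48.4 CPM in control tumours. The groups overlapped, and the log2 fold change of -0.20 (95% interval -0.50 to 0.10) had an edgeR adjusted p of 0.575. ZNF350, a partner of BRCA1, had a log2 fold change of -0.04 (95% interval -0.48 to 0.39). ZNF224, a repressor of the aldolase A gene, had 0.06 (-0.26 to 0.38), and ZNF331, which was found at a rearrangement in thyroid adenomas, had 0.01 (-0.24 to 0.25). ZNF649 had 0.29 (-0.29 to 0.86), and 0.04 without knock-down 4. Without control 1 and 2 the value of ZNF274 was -0.05.

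The cofactors through which KRAB zinc finger proteins act were given by a list of 29 genes. None passed the test. The median log2 fold change was -0.02, with 13 of 29 positive. At an unadjusted p below 0.05 there were 1 higher and 3 lower of the 29, beside 7.45% and 5.21% of all genes. TRIM28 had 444, 726 and 823 CPM in knock-down tumours, against 502, 751 and 839 CPM in control tumours (log2 fold change -0.06, 95% interval -0.39 to 0.26), and SETDB1 had a log2 fold change of 0.01 (-0.22 to 0.25). The groups overlapped for both. The 4 with the smallest p were TRIM24, a relative of TRIM28, at 0.33, ATRX, a chromatin remodeller, at -0.32, ATF7IP, the partner of SETDB1, at -0.28, and TRIM33, also related to TRIM28, at -0.26, with edgeR adjusted p of 0.339, 0.344, 0.350 and 0.344 in that order.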

How the data were processed

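RNA of 12 SK-ES1 xenograft tumours was extracted with an RNeasy kit and made into TruSeq stranded mRNA libraries, per the labels' protocols. The authors deposited 1 table of raw read counts per gene, not normalised. The submitters' processing notes name FastQC, STAR 2.6.0a, featureCounts, limma 3.40.2, R 3.6.0 and hg38. The sources used here do not give the strand setting, the treatment of reads with several alignments or any removal of host reads. The exons of all 241 ZNF rows of chromosome 19 were those of GENCODE release 29.

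Counts were fitted in R 4.3.3 with edgeR 4.0.16. The filterByExpr function kept 16519 genes holding 99.84% of the counts, and all 173 members. Library factors (TMM, trimmed mean of M values) ran from 0.921 to 1.04. The robust quasi-likelihood test set knock-down against control over the whole table with no covariate, with calls at a Benjamini-Hochberg adjusted p below 0.05, and standard errors derived from the F statistic. The fit was tested on simulated data. For single values an exact permutation test, two-sided, ran over the 924 divisions of the libraries. CPM values are TMM-scaled, except in the member rule, which uses library totals; log2 CPM has a prior count of 2. Alternatives used other scalings and filters, DESeq2 1.42.0, limma 3.58.1 (voom), the title letter, the title number, each library left out, other levels of the rule and other gaps between position groups. Floors cover counting error only.

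The members and lists were chosen with earlier results of these data known. Genes named were RNF2, the 8 members highest per kb, the 6 largest log2 fold changes in each direction, the smallest p of each position group, members with textbook roles, 3 genes on each side of the level and, from the 29 cofactors, TRIM28, SETDB1 and the 4 with the smallest p. The members of wide range and the neighbours of ZNF671 were chosen after their values were seen. KRAB, finger and linker patterns were searched in whole protein-coding transcripts, in any reading frame, since no protein sequences were used here. Promoters came from RefSeq on GRCh38.p14, with a window for 157 members. The 8 title numbers do not occur in both groups and the labels do not say what they mark, so the spread behind each p-value is that between these samples and may be technical.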

Additional observations from a re-analysis of the deposited data

Results flagged for a closer look

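In each group of 6 libraries, the highest or lowest value of a named gene or position group was set against the others by the size of its gap. Of 112 groups of values tested, 8 were marked, where chance marks about 1 in 20 groups.

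Among genes, ZNF506 had 4.09 CPM in knock-down 4, while the other 5 knock-down libraries had 0.583 to 0.961. ZNF428 had 79.4 CPM in knock-down 4, above 46.3 to 55.5 in the other 5. ZNF317 had 48.5 CPM in knock-down 2, below 55.4 to 58.5 in the other 5. ZNF573 had 2.67 CPM in control 3, above 0.658 to 1.33 in the other 5 control libraries, and ZNF30 had 9.25 CPM in control 6, above 3.03 to 5.21.

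Among position groups, knock-down 5 stood above the other 5 knock-down libraries in the first 3 groups of the short arm. Its median deviation of log2 CPM was 0.54 in group 1 (0.03 to 0.17 in the others), 0.18 in group 2 (-0.01 to 0.06) and 0.62 in group 3 (-0.11 to 0.10).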

How the results depend on the processing

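The count of members called lower was 1, ZNF671, under a filter of 1 CPM in at least 6 libraries, DESeq2, limma-voom, the title number as a random effect, and without control 6, knock-down 4 and knock-down 5 together (chosen after seeing the data). With counts summed by title number ZNF671 was not called (adjusted p = 0.162, edgeR). The count called higher was 2 under DESeq2. Leaving out each library gave 0 to 1 called lower, 0 called higher, 114 to 132 positive members and medians of 0.083 to 0.149. Among members that overlap no other gene, 53 of 77 were positive. Leaving out each library took the group medians to -0.038 to 0.067 in group 2, 0.038 to 0.218 in group 3, 0.206 to 0.403 in group 4, 0.074 to 0.256 in group 6, 0.091 to 0.206 in group 8 and 0.010 to 0.078 in group 9. Without the 3 libraries they were -0.034 in group 2, 0.045 in group 3, 0.074 in group 8 and -0.008 in group 9. With counts summed by title number that of group 2 was -0.026. The cause of these shifts was not tested.

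ZNF30 had 0.813 without control 6, ZNF428 0.232 without control 1 and 2, ZNF581 0.192 without knock-down 4, ZNF787 0.081 without control 6 and ZNF266 -0.059 without knock-down 4. Signs turned for members and cofactors near 0. ZNF331 had -0.003 with DESeq2 and with RLE factors, -0.036 with counts summed by title number, -0.008 with library size alone, -0.001 with limma-voom, -0.004 with no low-count filter, -0.066 with the title letter as a covariate, -0.029 without the 3 libraries and -0.024 without control 1 and 2. ZNF224 had -0.026 with the title letter, TRIM28 0.009 with summed counts, ZNF317 -0.034 without the 3 libraries and ZNF146 -0.021 without control 1 and 2. Leaving out each library gave -0.072 to 0.047 for ZNF331, -0.145 to 0.038 for TRIM28, -0.001 to 0.117 for ZNF224, -0.018 to 0.070 for ZNF317, -0.015 to 0.115 for ZNF146, -0.042 to 0.139 for ZNF580, -0.139 to 0.035 for ZNF350 and -0.046 to 0.048 for SETDB1.

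No paired analysis was possible because no title number occurs in both groups. The consensus correlation of libraries that share a number was -0.125. At 3 counts, or 0.112 to 0.126 CPM, the depth limits the lowest libraries of ZNF43, ZNF83 and ZNF85.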
